A study of Mus musculus with 6 samples.

Results

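The 10 genes described here were grouped under the synthesis of glycosphingolipids, the sugar-bearing lipids of the outer cell membrane. Of these genes, B4galt1 and B4galt3 act mainly on the sugar chains of proteins. The 10 genes are Sptlc2, Cers2, Ugcg, B4galt5, B4galt6, St3gal5, St8sia1, B4galnt1, B4galt1 and B4galt3, chosen by name. Each is represented by its probe set with the highest mean over all 6 arrays among those annotated with 1 gene symbol. All 10 were measured, out of 22180 genes with such a probe set. The means used for that choice mattered for Cers2 alone, whose kept probe set averaged 7.67 and whose other one averaged 6.21 on the log2 scale. The group was put together knowing that B4galt6 was much higher in acute than in chronic myeloid leukemia, so B4galt6 is described here without a test. The other 9 genes and the gene lists below were also chosen with earlier results of these data known. Their calls are therefore not an independent test.

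The data came from 6 microarrays, 3 labelled acute myeloid leukemia (AML) and 3 labelled chronic myeloid leukemia (CML). Every sample was primary sorted, osteoblastic cells of mouse bone marrow from animals with the Col2.3 GFP genotype, which carry green fluorescent protein under part of the Col1a1 promoter, active in bone-forming cells. There was no group of healthy mice, and how each leukemia was induced, the strain, the age and the time of sampling are not given in the sources used here. Titles assign samples to the leukemias, while the source names give CML for all 6, so every direction below rests on the titles. Whether replicates are separate mice is not stated, and the p-values therefore describe variation among these arrays that could be purely technical.

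Values are log2 of the deposited intensity, and the medians of the arrays lay between 4.11 and 4.35. Across all probe sets, which are not independent, the log2 correlation was 0.955 to 0.966 between AML arrays, 0.905 to 0.931 between CML arrays and 0.891 to 0.935 between an AML and a CML array, so the highest value between the groups exceeded the highest within CML. Markers of blood cells were present beside those of the labelled lineage. Col1a1, the main collagen of bone, lay between 8.71 and 11.95 in CML and between 7.26 and 9.87 in AML, Sp7, an osteoblast transcription factor, between 5.15 and 8.57 and between 4.81 and 5.90, and Bglap, the osteocalcin gene, between 4.25 and 7.04 and between 3.31 and 4.84. Ptprc, the pan-leukocyte marker, lay between 4.96 and 8.27 in CML and between 8.17 and 9.30 in AML. These are bulk samples, in which fewer cells of a type and less RNA per cell cannot be told apart.

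Glycosphingolipid synthesis starts in the endoplasmic reticulum, where serine palmitoyltransferase joins serine to a fatty acyl chain and ceramide synthases attach another acyl chain to make ceramide. In the Golgi, Ugcg adds glucose to ceramide, and B4galt5 or B4galt6 adds galactose to give lactosylceramide, from which the ganglio-, globo- and neolacto-series branch. St3gal5 adds sialic acid to make the ganglioside GM3, St8sia1 adds another to make GD3, and B4galnt1 adds N-acetylgalactosamine to start the complex gangliosides such as GM2 and GD2.

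B4galnt1 rose 8.55-fold in AML, and B4galt6 was 12.1-fold higher by value. Sptlc2 was 3.23-fold higher by value and missed the threshold narrowly. Ugcg, St8sia1, B4galt1 and B4galt3 differed by less than the spread between replicates, and St3gal5 was 2.51-fold lower by value without passing. By value, 6 of the 9 genes other than B4galt6 were higher in AML, beside 38.3% of all genes. Their median log2 change (AML minus CML) was 0.22, against a median of -0.11 over all genes. The median depended on level. In the upper 50% of genes by mean level it was 0.17 over all genes kept and 0.40 over the 8 of these genes kept. Among the 9 genes other than B4galt6, 1 passed an adjusted p of 0.05 as higher and 0 as lower in limma, where 1.83% of all genes passed as higher and 0.0812% as lower, 1.91% in all. At an unadjusted p under 0.05 limma gave 4 of these 9, beside 21.5% of all genes. The groups did not overlap for 4 of these 9, all higher in AML, beside 13.3% of all genes that were higher without overlap.

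**Figure D1:**
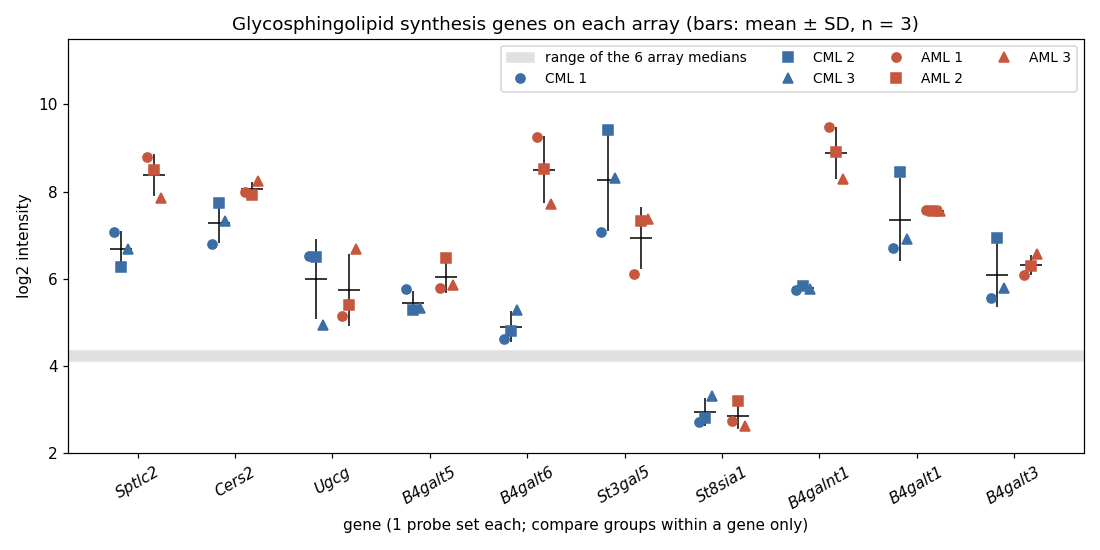
Log2 intensity (y axis) of the 10 genes (x axis) on each of the 3 CML (blue) and 3 AML (red) arrays, with symbols for the replicate number, black bars for mean ± SD and a grey band for the range of the array medians. For B4galt6 the AML arrays lie between 7.72 and 9.26 and the CML arrays between 4.62 and 5.29, while all 6 values of St8sia1 lie below the grey band.

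RefSeq promoter windows (build GRCm38.p6) were matched for 8 of the 10 genes, all but B4galt6 and B4galnt1. The 250 bases before the annotated start are shown for Sptlc2, the gene with the largest higher value among the 8, for St3gal5, the gene with the lowest change, and for B4galt5, the paralogue of B4galt6. The Sptlc2 window is chr12:87388356-87388605 on the minus strand, that of B4galt5 is chr2:167349179-167349428 on the minus strand, and that of St3gal5 is chr6:72097358-72097607 on the plus strand. Each is written in the direction of the gene, and capitals mark GC boxes (GGGCGG or its reverse complement CCGCCC) and CCAAT boxes (CCAAT or ATTGG).
Sptlc2: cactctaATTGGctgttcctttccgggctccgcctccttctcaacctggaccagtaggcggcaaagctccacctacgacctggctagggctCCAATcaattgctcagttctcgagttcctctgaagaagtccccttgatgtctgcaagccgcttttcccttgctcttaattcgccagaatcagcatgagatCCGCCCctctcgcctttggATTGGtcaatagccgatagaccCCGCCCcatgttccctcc
B4galt5: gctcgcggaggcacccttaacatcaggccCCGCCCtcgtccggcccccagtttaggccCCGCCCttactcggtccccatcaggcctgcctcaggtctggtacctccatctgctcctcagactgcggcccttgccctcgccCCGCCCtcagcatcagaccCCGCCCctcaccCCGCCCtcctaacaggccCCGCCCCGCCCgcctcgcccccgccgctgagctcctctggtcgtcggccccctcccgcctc
St3gal5: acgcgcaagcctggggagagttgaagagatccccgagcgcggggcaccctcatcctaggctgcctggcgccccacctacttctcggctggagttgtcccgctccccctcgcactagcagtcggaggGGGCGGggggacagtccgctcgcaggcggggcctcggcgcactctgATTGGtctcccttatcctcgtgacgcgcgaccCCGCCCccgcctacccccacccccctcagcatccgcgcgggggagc
The Sptlc2 window held 3 CCAAT boxes and 2 GC boxes, the B4galt5 window 7 GC boxes, of which neighbouring ones can share a base, and 0 CCAAT boxes, and the St3gal5 window 2 GC boxes and 1 CCAAT box. GC content was 55.2% for Sptlc2, 73.2% for B4galt5 and 71.6% for St3gal5. Among the 9 windows of the 8 genes, Cers2 having 2, a GC box was found in 8 and a CCAAT box in 4, while 32.7% and 33.8% of all 32851 windows of this length held one. The letters GAGGAAGT, a PU.1 core, or TGACAG, a MEIS core, were in 0 of the 9 windows on either strand, against 2.44% and 15.9% of all windows. A match is a run of letters and says nothing here of binding.

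Ceramide supply was represented by Sptlc2 and Cers2, both higher in AML by value. Sptlc2, a catalytic subunit of serine palmitoyltransferase and so part of the first committed step (probe set 17282868), read 7.08, 6.28 and 6.69 in CML replicates 1, 2 and 3, and 8.80, 8.48 and 7.84 in the AML replicates. The lowest AML value was above the highest CML value. The log2 change was 1.69 ± 0.31 (SE, n = 3 per group; limma adjusted p = 0.0527), just outside the threshold. Sptlc2 passed under 4 of the 14 alternative settings, among them median centring (adjusted p = 0.0322) and the fit without AML 3 (log2 change 1.96, adjusted p = 0.0472), and its adjusted p ran from 0.0322 to 0.189 over all of them in limma.

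Cers2, the synthase for very long-chain ceramides (probe set 17400317), read 6.79, 7.73 and 7.33 in CML and 8.0, 7.93 and 8.25 in AML, in the order of the replicate numbers as throughout. The groups did not overlap, with the AML arrays close together and CML 2 just below them. The log2 change was 0.77 ± 0.25 (SE; limma adjusted p = 0.166). The other Cers2 probe set, 17407794, stood at -0.14, with values from 5.83 to 6.49 that overlapped between the groups, so the Cers2 probe sets disagree in sign.

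Ugcg, the glucosylceramide synthase that commits ceramide to this pathway (probe set 17414434), read 6.53, 6.51 and 4.95 in CML and 5.15, 5.39 and 6.69 in AML. One array of each group stood apart from the other two of its group, CML 3 being low and AML 3 high, and the groups overlapped fully. The log2 change was -0.25 with a 95% interval from -1.60 to 1.09 (limma adjusted p = 0.789), so a change of 2-fold in either direction lies inside it. The value turned to 0.0024 without CML 2, 0.014 without CML 1 and 0.042 without AML 1.

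The lactosylceramide synthases B4galt5 and B4galt6 differed in the size of their values between the leukemias. B4galt6 (probe set 17352985) read 4.62, 4.80 and 5.29 in CML, close above the array medians, and 9.26, 8.53 and 7.72 in AML. In linear intensity this was 24.6, 27.9 and 39.2 against 614, 369 and 211. Every AML array lay over 2 log2 units above every CML array, with AML 1 the highest and AML 3 the lowest of its group. The group means were 4.91 ± 0.35 for CML and 8.50 ± 0.77 for AML (SD, n = 3 each), a difference of 3.60, which is the value that drew this gene into the group. A log2 change of 3 or more was found for 0.176% of all genes.

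B4galt5 (probe set 17394694), which is widely expressed, read 5.76, 5.28 and 5.32 in CML and 5.80, 6.47 and 5.86 in AML. The groups did not overlap, but CML 1 and AML 1 differed by less than 0.05. The log2 change was 0.59 ± 0.24 (SE; limma adjusted p = 0.220). The difference between B4galt6 and B4galt5 within an array went from -0.55 ± 0.56 in CML to 2.46 ± 0.87 in AML (SD, n = 3 each), a shift of 3.01 that was not tested because it holds B4galt6. Levels of different probe sets are not comparable, so only the shift between the groups has a meaning.

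Of the ganglioside enzymes, B4galnt1 passed the test and St3gal5 and St8sia1 did not. B4galnt1, the GM2 and GD2 synthase (probe set 17237937), read 5.75, 5.84 and 5.77 in CML, a span of under 0.1, and 9.47, 8.90 and 8.28 in AML. As with B4galt6, AML 1 was the highest and AML 3 the lowest array. In linear intensity the CML arrays read 53.7, 57.3 and 54.7 and the AML arrays 710, 478 and 311. B4galnt1 rose by 3.10 ± 0.29 log2 units (SE; 95% interval 2.40 to 3.80; limma adjusted p = 0.0166).

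This call held under quantile normalization, median centring and cyclic loess. It was lost without CML 3, without AML 1 and without AML 2 (limma adjusted p = 0.0759, 0.0649 and 0.118), 3 fits in which 0 of all 22180 genes passed and 3533, 3048 and 3750 had an unadjusted p under 0.05. The call was also lost with the replicate number as a block (limma adjusted p = 0.0932), where again 0 of all genes passed. The log2 change in the 6 fits with 1 array left out ran from 2.80 to 3.40, and the limma adjusted p over all 14 alternatives from 0.0105 to 0.118.

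St3gal5, the GM3 synthase whose product feeds B4galnt1 and St8sia1 (probe set 17459591), read 7.08, 9.40 and 8.32 in CML and 6.12, 7.33 and 7.38 in AML. CML 2 was the highest and AML 1 the lowest array, and the groups overlapped because CML 1 lay below AML 2 and AML 3. The log2 change was -1.33 ± 0.62 (SE; limma adjusted p = 0.267), with a range from -1.92 to -0.76 when 1 array was left out. It was the lowest change of the 10 genes and stayed below 0 under all 14 alternatives. The difference between B4galnt1 and St3gal5 within an array was -1.33, -3.56 and -2.55 in CML and 3.35, 1.57 and 0.90 in AML, a shift of 4.42 between the groups, in which no array of one group reached the other. This pair was chosen after its values were seen, so the shift is given as a description.

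St8sia1, the GD3 synthase (probe set 17472588), was below the array median on all 6 arrays, at 2.72, 2.82 and 3.31 in CML and 2.75, 3.20 and 2.63 in AML. The groups overlapped, with a log2 change of -0.088 that became 0.053, 0.061 and 0.066 under quantile normalization, median centring and cyclic loess (limma adjusted p = 0.821 as fitted). The 95% interval of the change was -0.64 to 0.46. No detection call was used here, so values this low cannot be set against background. A further probe set, 17464157, annotated with both St8sia1 and Gm7457, was as dim, from 2.79 to 3.24.

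B4galt1 and B4galt3 belong to the same galactosyltransferase family and act mainly on the sugar chains of proteins, B4galt1 also on lactose synthesis in the mammary gland. B4galt1 (probe set 17424077) read 6.70, 8.44 and 6.91 in CML and 7.57, 7.54 and 7.56 in AML, so that the AML arrays agreed to within 0.03 while CML 2 lay above and CML 1 and 3 below them. Its log2 change was 0.21 (95% interval -0.85 to 1.26; limma adjusted p = 0.782), and it turned to -0.0094 under quantile normalization and -0.14 under cyclic loess. B4galt3 (probe set 17219264) read 5.56, 6.94 and 5.79 in CML and 6.10, 6.29 and 6.57 in AML. CML 2 was again the highest array, and the change was 0.22 (95% interval -0.66 to 1.10; limma adjusted p = 0.719).

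**Figure D2:**
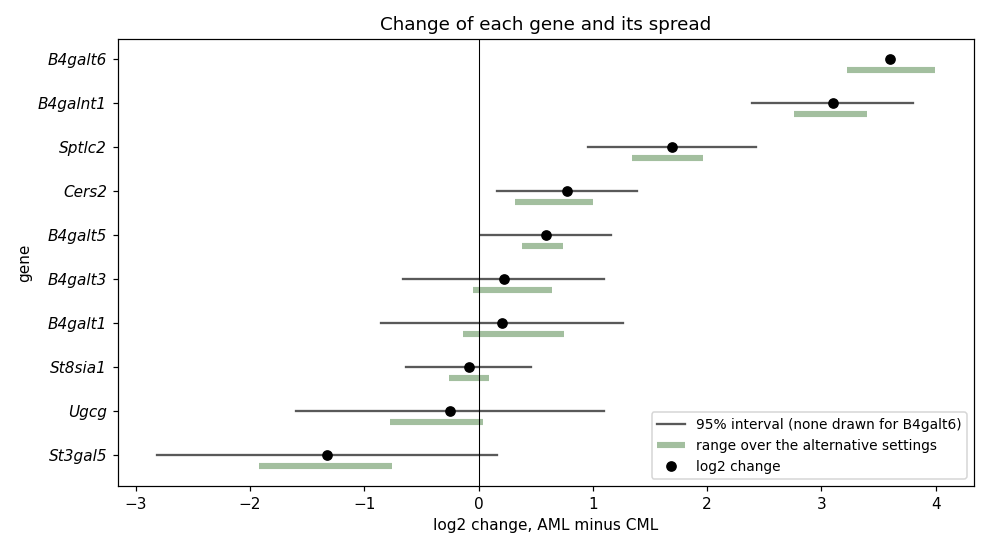
Log2 change, AML minus CML (x axis), of each gene (y axis), with the limma 95% interval as a thin line (none drawn for B4galt6, which is described without a test) and the range over the 14 alternative settings (13 for St8sia1) as a green bar. The intervals of B4galnt1, Sptlc2, Cers2 and B4galt5 lie above 0, of which B4galnt1 passed after adjustment over all genes, and the green bars of B4galt1, B4galt3, Ugcg and St8sia1 cross 0.

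Other enzymes of sphingolipid metabolism were read from lists ordered by step, which were drawn up with earlier results of these data known. Of 85 further genes measured, 3 rose in AML and 0 fell at an adjusted p of 0.05 in limma, or 3.53% higher beside 1.83% of all genes. By value 44 were higher and 41 lower, with a median log2 change of 0.03 against -0.11 over all genes. The groups did not overlap for 22 genes that were higher (25.9%, beside 13.3% of all genes) and for 10 that were lower (17.9% of all genes).

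The 3 that rose were Cers6, Hexa and Smpdl3a. Cers6, a ceramide synthase with a preference for shorter acyl chains than Cers2, read 5.26, 4.51 and 4.79 in CML and 8.38, 7.38 and 6.84 in AML, a log2 change of 2.68 ± 0.41 (SE; limma adjusted p = 0.0368). Hexa, the alpha subunit of the lysosomal hexosaminidase that removes the sugar B4galnt1 adds, read 5.89, 5.14 and 4.77 in CML and 8.91, 8.89 and 7.87 in AML, a log2 change of 3.29 ± 0.39 (SE; limma adjusted p = 0.0248). Smpdl3a, a phosphodiesterase related to acid sphingomyelinase, read 5.43, 6.05 and 6.30 in CML and 8.12, 7.97 and 7.27 in AML, a log2 change of 1.86 ± 0.31 (SE; limma adjusted p = 0.0437). For these genes the groups were separated by at least 0.9 log2 units, and AML 3 was the lowest AML array for each.

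All 3 calls were lost under quantile normalization and cyclic loess, where Hexa stood at an adjusted p of 0.0542 and 0.0575, Cers6 at 0.0712 and 0.0816 and Smpdl3a at 0.103 and 0.119 in limma. All were also lost without CML 3, AML 1 or AML 2 (adjusted p = 0.109, 0.101 and 0.145 for Cers6, 0.0846, 0.110 and 0.127 for Hexa and 0.0926, 0.176 and 0.174 for Smpdl3a in limma). Cers6 was lost without CML 2 as well (0.0587), and Smpdl3a without CML 1 (0.0580) and CML 2 (0.0613). With the replicate number as a block all 3 were lost too (limma adjusted p = 0.0980 for Cers6, 0.0932 for Hexa and 0.147 for Smpdl3a). The log2 changes ran from 2.26 to 3.02 for Cers6, from 2.99 to 3.64 for Hexa and from 1.32 to 2.12 for Smpdl3a over all 14 alternatives.

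In ceramide synthesis, 1 of 15 measured genes rose, Cers6, and the list's median was 0.60, with 9 higher by value. Degs1, which converts dihydroceramide to ceramide, was at 6.07, 6.73 and 5.75 in CML and 7.22, 7.56 and 7.32 in AML (log2 change 1.18; limma adjusted p = 0.0818). Of 12 genes of ganglioside synthesis, B4galnt1 rose and the other 11 did not pass, with a median of -0.10 and 4 higher by value. In the globo- and neolacto-series list 0 of 11 genes passed in either direction in limma (median -0.28). The lowest unadjusted p there was that of Gbgt1, the Forssman glycolipid synthase, at -0.64 (limma adjusted p = 0.134). None of 3 genes for galactosylceramide and sulfatide passed, and all were below 0 by value, Fa2h, a fatty acid 2-hydroxylase, at -0.52 (limma adjusted p = 0.243).

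The list of glycosphingolipid degradation, which holds lysosomal enzymes and others such as Gba2, Neu2 and Neu3, had a median of 0.72 over 12 measured genes, of which 9 were higher by value and Hexa passed. Asah1, the acid ceramidase, read 5.10, 4.26 and 3.55 in CML and 7.18, 7.23 and 6.14 in AML, 2.55 ± 0.46 higher by value (SE), and stood just outside the threshold (limma adjusted p = 0.0517). It passed under 5 of 14 alternatives, with an adjusted p from 0.0297 to 0.200. Gm2a, the activator protein that presents GM2 to hexosaminidase, was 2.05 higher by value and Psap, the precursor of the saposins, 0.91 (limma adjusted p = 0.155 and 0.131). Neu3, the ganglioside sialidase of the plasma membrane, was at -1.03 (limma adjusted p = 0.220).

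In the remaining lists Smpdl3a was the only further call, 1 of 9 genes in the list of sphingomyelin turnover (median 0.30). The genes Smpd1, Smpd2, Smpd3, Smpd4, Sgms1 and Sgms2 of that list did not pass. Of 7 genes of glycolipid and ceramide transfer 0 passed, the lowest unadjusted p being that of Abcb1b, a drug efflux pump, at 1.11 (limma adjusted p = 0.111; median 0.51). Of 12 genes of ceramidases and sphingosine phosphate metabolism 0 passed (median 0.33), with Asah1 leading. Of 7 genes that supply activated sugars 0 passed (median -0.0089), and Ugp2, which makes UDP-glucose, stood at 1.60 ± 0.31 (SE; limma adjusted p = 0.0591). In the B4GALT family B4galt6 aside, the other 6 members lay between -0.54 for B4galt2 and 0.59 for B4galt5, with 0 past the threshold. At an unadjusted p under 0.05, 25 of the 85 further genes were counted in limma, beside 21.5% of all genes.

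**Figure D3:**
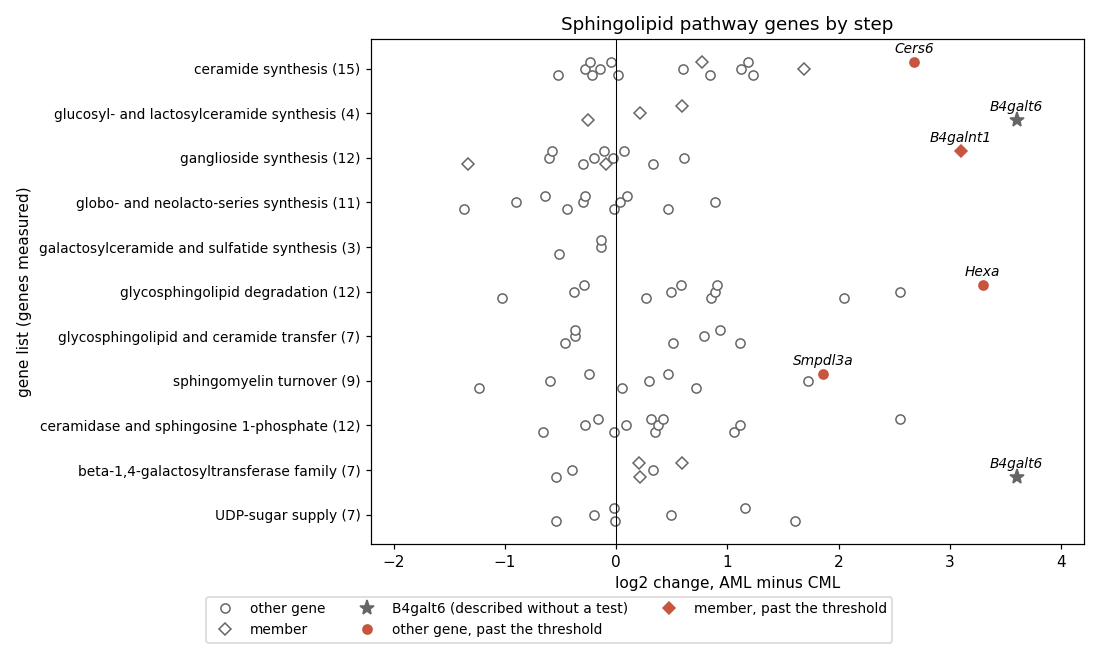
Log2 change, AML minus CML (x axis), of every measured gene of 11 sphingolipid lists (y axis, with the number of genes), diamonds for the 10 genes described above, a star for B4galt6, circles for other genes and filled red symbols for genes past a limma adjusted p of 0.05; a gene in several lists is drawn in each. B4galt6, Hexa, B4galnt1 and Cers6 lie furthest to the right at 3.60, 3.29, 3.10 and 2.68, and most other genes lie between -1 and 1.

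The genes with the pattern most like B4galt6 were sought as those with the smallest root mean square difference over the 6 arrays, after centring each gene on its own mean. The 5 nearest were F10, which encodes coagulation factor X, at 0.14 log2 units, Ms4a3, a membrane protein of granulocyte-monocyte progenitors, at 0.18, Elane, the neutrophil elastase, at 0.19, Abcd2, a peroxisomal fatty acid transporter, at 0.19, and Rab27a, a GTPase of granule secretion, at 0.23. F10 read 5.15, 5.22 and 5.72 in CML and 9.36, 8.91 and 8.0 in AML, and Elane 7.08, 6.93 and 7.55 against 11.60, 11.19 and 10.32. Each of the 5 was highest on AML 1 and lowest of its group on AML 3, an order that the choice by likeness to B4galt6 largely fixed. Of the sphingolipid genes, B4galnt1 was the nearest, at 0.34 and in place 11 of 17329 genes, followed by Hexa at 0.58 and Cers6 at 0.59 in places 39 and 40. Sptlc2 was in place 259, with a difference of 1.03. The measure keeps the difference between the groups, so a near place partly restates a change about as large as that of B4galt6.

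Primary granule, stem and progenitor and pan-haematopoietic markers were mostly higher in AML by value. The neutrophil list and the monocyte and macrophage list were more mixed. Erythroid, B lineage and T and NK markers were lower in AML by value. Over all genes, 38.3% were higher in AML by value and 1.83% passed as higher. All 18 pan-haematopoietic markers were higher in AML by value and 4 rose, with a summed intensity of 2915 to 6609 in CML and 8238 to 13186 in AML. Of 10 markers of primary granules and myeloid progenitors 9 were higher by value and 7 rose, with sums of 1134, 952 and 1466 in CML and of 13387, 10994 and 5894 in AML. Their sum, like B4galt6 and B4galnt1, was highest on AML 1 and lowest of its group on AML 3. The sums of the pan-haematopoietic, neutrophil and stem and progenitor lists had the same order among the AML arrays. The monocyte and macrophage sum was highest on AML 2 and lowest of its group on AML 3. Of 12 monocyte and macrophage markers 8 were higher and 4 rose (747 to 1794 in CML and 2958 to 7011 in AML). The macrophage markers C1qa, C1qb, C1qc and Mrc1 were lower by value. Of 8 stem and progenitor markers 7 were higher and 4 rose (329 to 971 and 1328 to 1909). Of 10 neutrophil markers 7 were higher by value and 0 passed (6955 to 15810 and 14612 to 18150). Retnlg, Cxcr2 and Mmp8 were lower by value. The mean log2 of the neutrophil list overlapped, at 8.33 to 9.80 in CML and 9.27 to 9.71 in AML.

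Markers of the labelled lineage went the other way by value. All 10 measured osteoblast markers were lower in AML and 0 passed, with sums of 2706 to 12727 in CML and 1324 to 4748 in AML. Of all genes, 38.3% were higher by value and 0.0812% passed as lower. The sums for mesenchymal progenitor and reticular markers were 245 to 374 and 247 to 480 (6 of 10 higher by value), for endothelial markers 168 to 232 and 230.3 to 282 (2 of 8), for erythroid markers 1314 to 3726 and 116 to 2094 (0 of 4), for B lineage markers 127 to 2131 and 147 to 352 (0 of 6) and for T and NK markers 99.1 to 105 and 77.4 to 88.2 (0 of 7), with 0 genes past the threshold in each. The endothelial mean log2 overlapped, at 4.24 to 4.52 in CML and 4.27 to 4.48 in AML. Pecam1, 1 of the 2 endothelial markers higher by value, was the brightest of the 8. No marker was at 0 on any array. The part of these markers in the values of B4galt6, B4galnt1, Sptlc2, Cers6, Hexa and Smpdl3a was not tested.

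**Figure D4:**
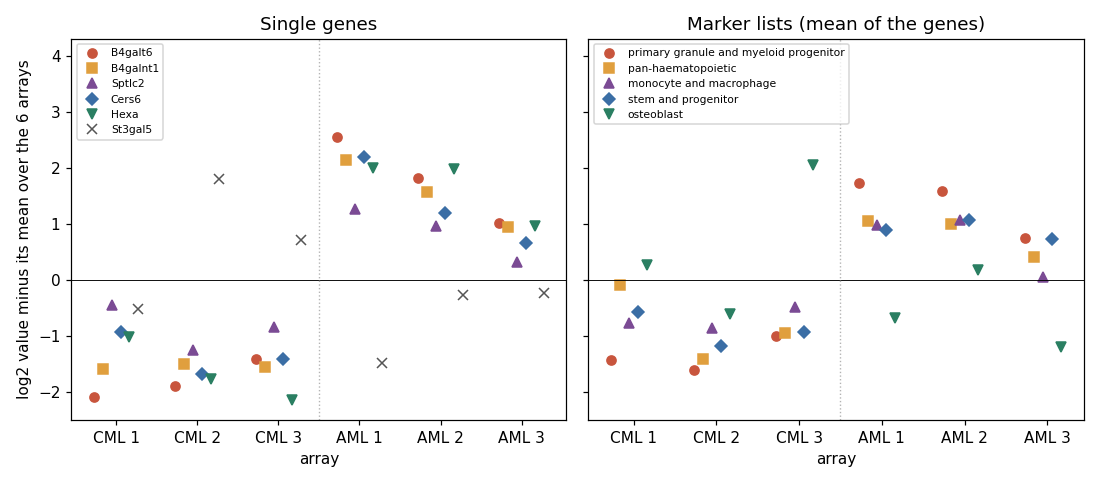
Log2 value minus its mean over the 6 arrays (y axis) on each array (x axis), for 6 single genes on the left and for the mean of 5 marker lists on the right; array numbers have no order. B4galt6, B4galnt1, Sptlc2, Cers6 and Hexa lie below 0 on all CML arrays and above 0 on all AML arrays, as do the 4 haematopoietic lists drawn, while St3gal5 and the osteoblast list lie on both sides in CML or AML.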

How the data were processed

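RNA of 6 samples of sorted mouse marrow cells was labelled with a GeneChip terminal labelling kit and measured on 1 array each, per the labels' protocols. The range of the deposited values shows a linear intensity scale; limma and lumi are named in the submitters' processing notes, and background correction, summarisation and normalization by the authors are not given in the sources used here. Dim genes were not set against background, and the number of arrays limits the precision.

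Of 39721 probe sets, 23521 had 1 gene symbol in the platform annotation, 1814 several and 14386 none. Symbols were checked by Entrez identifier against the RefSeq genes of GRCm38.p6, where 23328 were found. Each gene was represented by its brightest probe set on average. Log2 intensities (floor 1, reached by 0 values) of all 22180 genes went into lmFit and eBayes (limma 3.58.1, R 4.3.3), two-sided, with Benjamini-Hochberg adjustment and a threshold of 0.05.

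The members and lists were chosen with earlier results of these data known. Named genes were all members, each list's calls or its lowest p, the 5 most like B4galt6 (predicted, small RNA and receptor symbols passed over) and 4 markers; Degs1, Gm2a, Psap, Neu3 and B4galt2 were named after their values were seen. Of 94 further pathway genes listed, 85 were measured. Alternatives were 3 scalings, a level filter, averaged probe sets, eBayes options, array weights, leaving out each array and a replicate block. On simulated arrays of 22180 genes for AML against CML, 36% of 50 genes changed by 1 log2 unit were called, 80% at 2, 88% at 3 and 92% at 4, with 10 false calls. The simulated noise was independent between genes and held no effect shared across an array. These rates may therefore not hold for the real arrays. Plots were made in Python 3.11.15 (matplotlib 3.10.9).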

Additional observations from a re-analysis of the deposited data

How the results depend on the processing

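The count of all genes past the threshold was 423 as fitted, 93 after quantile normalization, 64 after cyclic loess, 896 after median centring, 639 with array weights and 0 with the replicate number as a block, and ran from 0 to 438 with 1 array left out. Median centring moved the median change of all genes from -0.11 to 0.04. Among the 9 described genes other than B4galt6 the count, added after the data were seen, was 1 as fitted, 2 after median centring, 2 of 8 kept in the upper 50% of genes by mean level, 2 with array weights, 0 with the replicate block and 0 to 2 with 1 array left out, with 4 of the 9 at an unadjusted p under 0.05 in the blocked limma fit. B4galt6 was left out of this count since it was chosen on this contrast. Among the 85 further pathway genes the count was 3 as fitted, 0 after quantile normalization, 0 after cyclic loess, 6 after median centring, 6 with array weights and 0 with the replicate block, and ran from 0 to 5 with 1 array left out. In the upper 50% of genes by mean level it was 5 of the 52 pathway genes kept, where 562 of 11090 genes passed. In the blocked fit limma gave 3711 genes at an unadjusted p under 0.05, and 24 of the 85. Same-numbered CML and AML arrays deviated from their group means with correlations of 0.24, -0.30 and -0.25 across genes. Deviations from a mean of 3 arrays constrain one another, so these values cannot decide whether the numbers are pairs. The labels state no pairing, and the main fit used none.

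B4galt1 turned from 0.21 to -0.0094 after quantile normalization and -0.14 after cyclic loess, and St8sia1 from -0.088 to 0.053, 0.061 and 0.066 under quantile normalization, median centring and cyclic loess. With 1 array left out B4galt1 ran from -0.12 to 0.75, B4galt3 from -0.051 to 0.64, Ugcg from -0.78 to 0.042 and St8sia1 from -0.26 to 0.090. B4galt6 ran from 3.22 to 3.99 and B4galnt1 from 2.76 to 3.40 over all 14 alternatives. The cause of these moves was not tested. St8sia1 fell below the level filter and has no value there.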
